A study of Mus musculus with 2 samples.

Results

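Pericentral sinusoidal endothelial cells were examined in endothelial cells sorted from mouse liver and profiled by droplet single-cell RNA sequencing, as 1 library from mice with cirrhosis and 1 from control mice. They numbered 1499 of 13969 deposited barcodes, which was 746 of 8327 in the cirrhosis library and 753 of 5642 in the control library. A barcode first had to pass as sinusoidal endothelium, with at least 0.3% of its UMIs (unique molecular identifiers, one per captured RNA molecule) from Stab1, Stab2, Clec4g and Dnase1l3, under 0.2% from C1qa, C1qb and C1qc and under 0.5% from Alb, Apoa1, Apoa2 and Fabp1. It was then scored by the mean log value of Wnt2, Rspo3, Kit, Cdh13 and Thbd minus that of Dll4, Efnb2, Ltbp4, Ntn4 and Msr1, and the 20% of passing barcodes with the highest score in each library were the members. The members were thus selected on the measured counts of these 10 genes and of the filter genes. The 20% with the lowest score, 746 in cirrhosis and 753 in control, are called the periportal end and serve for comparison.

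Both groups were C57BL/6 mice aged 16 weeks of genotype Cdh5-Cre+, mTmG +/+, in which a recombinase driven by an endothelial promoter switches the cell's reporter from tdTomato to GFP. In the cirrhosis group carbon tetrachloride had been inhaled for 12 weeks, a compound that pericentral hepatocytes convert to a toxic product, and the labels name no vehicle for the control group. Livers were perfused with collagenase, hepatocytes were spun out, and GFP-positive cells that excluded a dead-cell dye were sorted from a pool of 3 mice per group. Each pool gave 1 library, so animals cannot be told apart and there was no replicate check. The driver marks endothelium of every vessel, so the zone rests on transcripts alone. No test was made between groups or between ends of the score. Every interval below is an exact 95% interval that covers counting error only.

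Blood enters the liver lobule beside the portal vein and artery, flows through sinusoids lined by fenestrated endothelium and leaves through the central vein. Endothelial cells at the central end secrete Wnt ligands, and R-spondins there amplify the signal, which together maintain the pericentral programme of neighbouring hepatocytes. Sinusoidal endothelium also clears macromolecules from blood through scavenger receptors, and in chronic injury it can take on features of continuous capillaries, a process called capillarization.

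The members held 8290376 UMIs in cirrhosis and 6287515 in control, with medians of 10667 and 7237 UMIs and of 3807 and 3085 genes per barcode. Mitochondrial transcripts made up a median of 7.37% of the UMIs per member in cirrhosis and 6.13% in control. The sinusoidal filters passed 44.8% of the cirrhosis barcodes and 66.7% of the control barcodes. The libraries shared 17 barcode sequences, 0 of them among members of both. Levels are given as CPM, the UMIs of a gene summed over the cells of a class and scaled so that all genes of the class add up to the same fixed total, and ratios between classes are on the log2 scale.

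The members were the upper end of a continuous score and not a separate population. Their lowest score was 0.542 in cirrhosis and 0.684 in control, their median 0.879 and 1.06, and their highest 2.002 and 2.868. The 10 members just inside the limit scored 0.542 to 0.545 in cirrhosis and 0.684 to 0.693 in control, and the 10 barcodes just outside scored 0.534 to 0.540 and 0.671 to 0.682. Within 0.1 of the limit lay 138 members and 133 other barcodes in cirrhosis, and 112 members and 105 others in control. Of the cirrhosis barcodes, 568 (15.2%) reached the control library's limit, so a fixed 20% reached lower on the scale in cirrhosis. Because the rule takes the same share of each library, the number of members says nothing about how many pericentral cells either liver had.

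**Figure D1:**
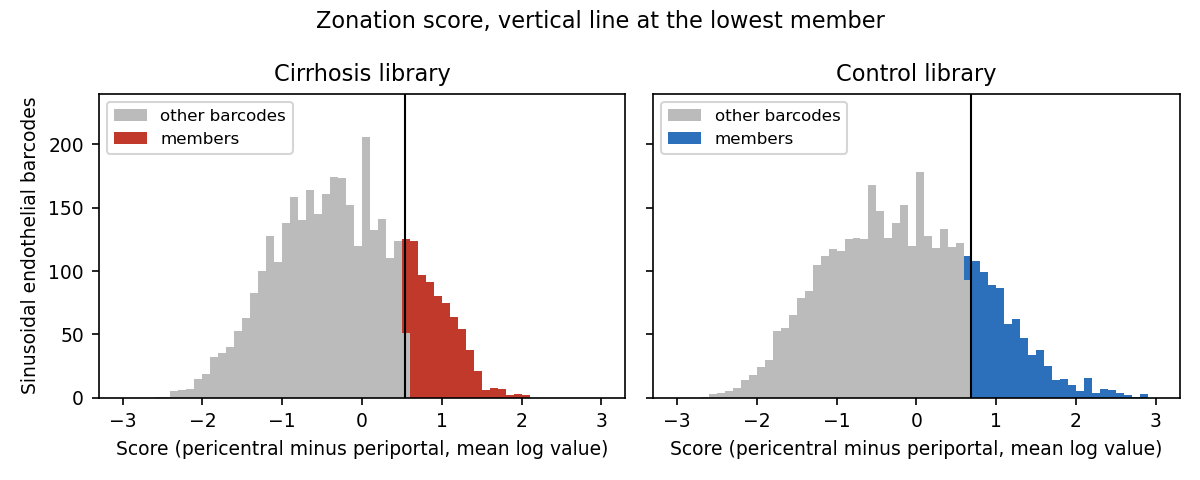
Number of sinusoidal endothelial barcodes by zonation score in the cirrhosis library (left) and the control library (right), in steps of 0.1, with members coloured and the line at the lowest member. The limit stood at 0.542 in cirrhosis and 0.684 in control, with no gap in either distribution.

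The 5 marker genes chose the members, so their levels are a description of the selection. All 5 were detected in 5.63% of cirrhosis members and 25.1% of control members, and 4 of them in 59.4% and 44.0%. At least 1 of the 5 periportal score genes was detected in 88.7% of cirrhosis members and 74.8% of control members, at the depths of 10667 and 7237 UMIs. With cells thinned to 3000 UMIs there was no common direction, as Dll4 was detected in 3.31% of cirrhosis members and 12.0% of control members, and Efnb2 in 18.2% and 6.70%. Genes outside the rule were also ordered along the score. A list of 12 further pericentral genes took no part in the choice of cells. It was drawn up with earlier results of these data known, so its counts are a description and no independent check. Of the 12, 8 in cirrhosis and 9 in control were at least 2-fold higher in the members than at the periportal end. At least 2-fold lower were 0 and 1. Such differences were rare among all genes tested, at 1.57% higher and 1.27% lower in cirrhosis and 1.5% higher and 0.999% lower in control. The median log2 ratio of that list was 1.35 in cirrhosis and 1.65 in control, against 0.017 and 0.013 over all genes.

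Wnt2, which encodes a ligand of canonical Wnt signalling, stood at 426.6 CPM in cirrhosis members and 688.2 CPM in control members (log2 -0.69, interval -0.75 to -0.62). At the periportal end it stood at 8.41 and 37.7 CPM. Rspo3, the R-spondin that stabilises Wnt receptors, stood at 31.0 CPM in cirrhosis members and 304.3 CPM in control members (log2 -3.29, -3.49 to -3.11), and at 0.982 and 2.27 CPM at the periportal end. Wnt9b, the other Wnt ligand of the central vein and no part of the rule, was higher in cirrhosis members, at 143.7 against 83.0 CPM (log2 0.79, 0.64 to 0.94). The 3 measured ligands thus had no common direction. On GRCm38, Wnt2 lies at chr6:17988940-18030585, Rspo3 at chr10:29452416-29535867 and Wnt9b at chr11:103727364-103749821, all on the minus strand. The other 5 genes of the ligand list, Rspo1, Wnt5a, Wnt11, Wnt2b and Wnt4, stayed under a mean of 20 CPM in the members.

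Kit, a receptor tyrosine kinase that marks pericentral sinusoids, stood at 521.7 CPM in cirrhosis members and 783.5 CPM in control members (log2 -0.59). Cdh13, which encodes T-cadherin, stood at 176.6 and 375.3 CPM (log2 -1.09). Thbd, thrombomodulin, the cofactor that turns thrombin to protein C activation, went the other way at 991.1 against 384.1 CPM (log2 1.37, 1.30 to 1.43). Of the 5 markers 4 were thus lower and 1 was higher in the cirrhosis members. Among the periportal score genes, which the rule pressed down, Dll4 (a Notch ligand) stood at 12.8 CPM in cirrhosis members and 49.0 CPM in control members, and Msr1 (a scavenger receptor) at 51.1 and 20 CPM.

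**Figure D2:**
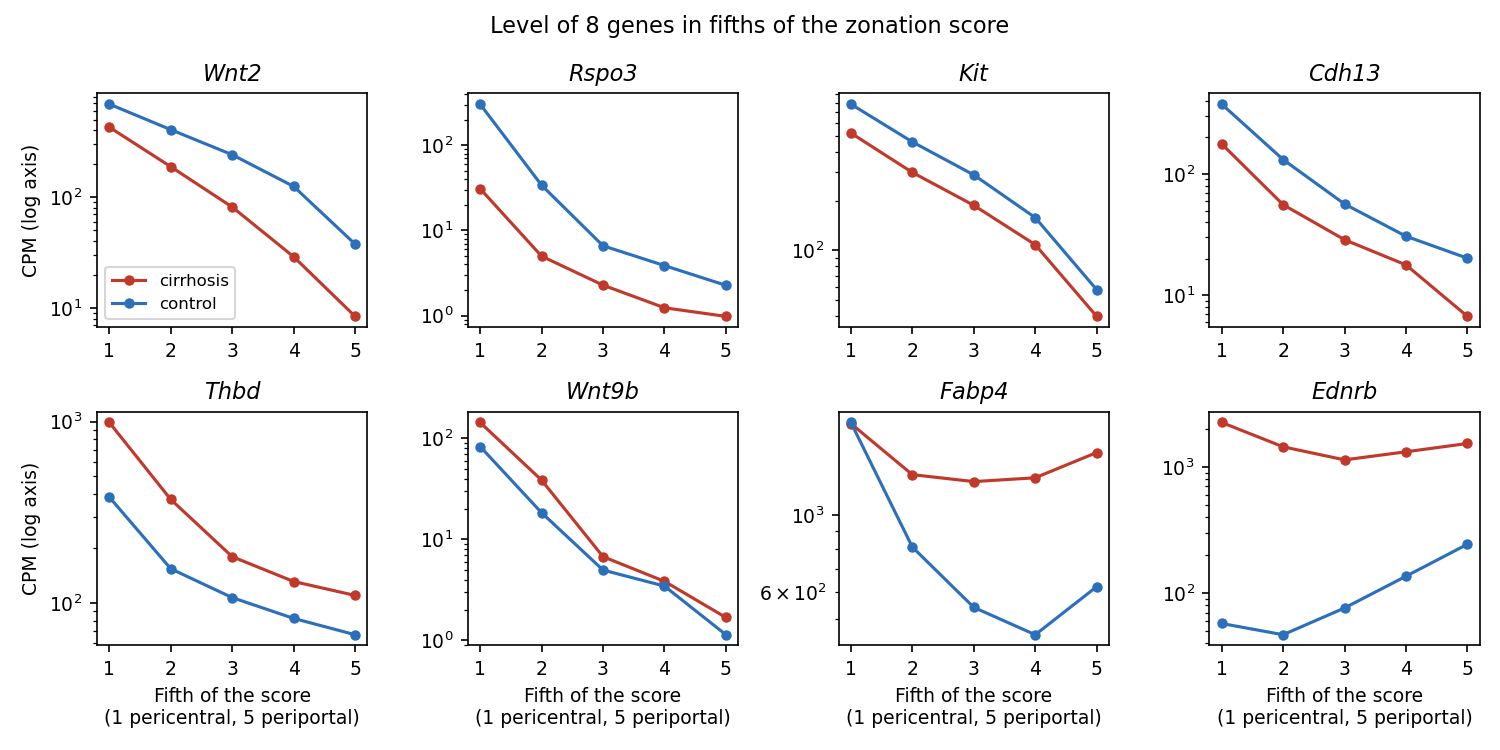
Level in CPM (log axis, scaled per panel) of 8 genes in 5 equal steps of the zonation score, from the pericentral members (1) to the periportal end (5), in the cirrhosis library (red) and the control library (blue). Wnt2, Rspo3, Kit, Cdh13 and Thbd are score genes. Ednrb was at least 1137 CPM in every step in cirrhosis and at most 244.3 CPM in control.

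The spread within the members is a description, since the same score and its genes order the cells. The highest-scoring 186 cirrhosis and 188 control members held Rspo3 at 79.0 CPM in cirrhosis and 1008 CPM in control, and the other members held it at 15.5 and 104.7 CPM. Wnt9b stood at 270.1 CPM in that top group in cirrhosis and 215.4 CPM in control, and at 102.8 and 45.5 CPM in the other members. Wnt2 stood at 613.2 and 911.2 CPM in the top group and 366.3 and 625.0 CPM in the others. The 10% of control members richest in Rspo3 held 77.2% of its UMIs in the members, and the 10% richest in Wnt2 held 24.0% of those of Wnt2. In cirrhosis Rspo3 was detected in 7.64% of the members, so the richest 10% held all of its UMIs.

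With each cell thinned to 3000 UMIs, Rspo3 was detected in 4.41% of 725 cirrhosis members (exact interval 3.04% to 6.17%) and 22.4% of 702 control members (19.3% to 25.6%), against 7.64% and 31.6% without thinning. Thinning left out 21 cirrhosis and 51 control members. In barcodes with T or NK cell transcripts, which should lack the gene, the shares were 2.92% of 308 in cirrhosis and 1.65% of 242 in control. Their median depths were 6244 and 6533 UMIs. In cirrhosis the intervals of the members and the T or NK barcodes (1.34% to 5.47%) overlapped. The T or NK barcodes are not a clean background, as the endothelial gene Eng was detected in 22.1% and 14.5% of them. At the periportal end Rspo3 was detected in 0 of 715 cirrhosis cells (0 to 0.515%) and 0.291% of 688 control cells (0.0352% to 1.05%). Rspo3 is a score gene, so the rule itself favours low shares at that end. Wnt2 was detected in 68.8% of cirrhosis and 90.3% of control members after thinning (94.1% and 98.3% without), with 3.90% and 2.48% in the T or NK barcodes. Wnt9b was detected in 24.8% of cirrhosis members (21.7% to 28.1%) and 17.0% of control members (14.2% to 19.9%), against 44.5% and 29.6% without thinning, with 1.95% and 0.413% in the T or NK barcodes.

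The values of Rspo3 and Wnt9b depended on the sinusoidal filter. Of all Rspo3 UMIs in the library, 8.93% lay in the members in cirrhosis and 65.4% in control, and 87.4% in cirrhosis and 18.1% in control lay in barcodes with less than 0.3% of UMIs from the sinusoidal genes. Over the whole library Rspo3 stood at 37.2 CPM in cirrhosis and 63.9 CPM in control, a much smaller gap than in the members. Wnt9b had 24.1% of its UMIs in the members in cirrhosis and 59.5% in control, with 64.2% and 12.4% under the minimum, and stood at 64.0 and 19.2 CPM over the whole library. The 4 genes of the filter were themselves lower in cirrhosis members, Stab1 at 928.5 against 2044 CPM and Dnase1l3 at 1670 against 3506 CPM. With the minimum lowered to 0.1%, a choice made after seeing the data, Rspo3 stood at 99.4 CPM in 847 cirrhosis members and 315.3 CPM in 772 control members (log2 -1.66) and Wnt9b at 260.3 and 84.9 CPM (log2 1.62). With the minimum raised to 0.6%, Rspo3 stood at 8.10 CPM in 542 cirrhosis members and 244.0 CPM in 712 control members (log2 -4.91), and Wnt9b at 58.8 and 69.8 CPM (log2 -0.25). The direction for Wnt9b thus turned with the filter, while Rspo3 was lower in cirrhosis members in each of the 17 alternatives, at log2 -1.66 to -4.91. All 17 kept a sinusoidal minimum, so they cannot show the ratio without one. Among the barcodes under 0.3%, Rspo3 was higher in cirrhosis, at 89.1 CPM against 60.3 CPM in control. In members with few immediate-early transcripts, described below, Rspo3 stood at 28.4 CPM in cirrhosis and 189.4 CPM in control. Thbd kept its direction, at log2 1.76 with the 0.1% minimum and 0.71 with the 0.6% minimum, the latter under 2-fold.

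Promoter sequences of Wnt2, Wnt9b and Ednrb are given. Wnt2 is a pericentral marker that chose the members, and Wnt9b is a pericentral gene outside the rule. Ednrb is a gene whose order along the score differed between libraries. RefSeq promoters on GRCm38.p6 cover 250 bases before to 50 after each start site, and 3 of 5 genes looked up were matched, without Rspo3 and Thbd. The windows are chr6:18030396-18030695 for Wnt2, chr11:103749772-103750071 for Wnt9b and chr14:103843652-103843951 for Ednrb, all on the minus strand and written 5′ to 3′. Searched on both strands were CTTTGA (TCF/LEF, the Wnt-responsive factors), TGANTCA (AP-1) and CCACCC (KLF), which cannot overlap over their full length. Among all promoters of this length they occurred in 16.0%, 7.81% and 31.5% of 32851. Capitals mark the only match, a KLF word on the opposite strand that begins 26 bases after the start site of Ednrb.
Wnt2: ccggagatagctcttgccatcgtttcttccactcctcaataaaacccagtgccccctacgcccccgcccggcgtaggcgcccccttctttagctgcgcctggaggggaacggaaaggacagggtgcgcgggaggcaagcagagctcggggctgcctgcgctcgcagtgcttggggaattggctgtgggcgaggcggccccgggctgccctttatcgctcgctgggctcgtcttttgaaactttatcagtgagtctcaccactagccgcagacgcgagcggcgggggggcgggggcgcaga
Wnt9b: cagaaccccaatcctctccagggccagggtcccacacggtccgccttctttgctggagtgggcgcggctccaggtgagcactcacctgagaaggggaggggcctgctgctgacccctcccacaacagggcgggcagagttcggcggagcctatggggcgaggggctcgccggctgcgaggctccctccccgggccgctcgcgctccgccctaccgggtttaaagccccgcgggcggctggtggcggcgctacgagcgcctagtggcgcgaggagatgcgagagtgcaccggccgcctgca
Ednrb: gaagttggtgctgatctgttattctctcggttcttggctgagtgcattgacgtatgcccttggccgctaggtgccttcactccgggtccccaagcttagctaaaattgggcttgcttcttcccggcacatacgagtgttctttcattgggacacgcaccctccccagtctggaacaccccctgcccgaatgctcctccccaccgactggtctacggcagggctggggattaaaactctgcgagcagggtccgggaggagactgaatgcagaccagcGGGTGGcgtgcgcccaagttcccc

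Over all genes tested, 107 of 6824 in cirrhosis and 105 of 7008 in control were at least 2-fold higher in the members than at the periportal end, and 87 and 70 were at least 2-fold lower. The cells were ordered by the score, so these are descriptions of the order. Of 6591 genes with enough counts in both libraries, 83 were higher in cirrhosis and 82 in control, 46 of them in both, which is 55.4% of the cirrhosis genes and 56.1% of the control genes. On the lower side 45 were shared, 60.0% of 75 in cirrhosis and 70.3% of 64 in control. Across these genes the zonal ratios of the libraries had a Pearson correlation of 0.74 and a Spearman correlation of 0.51, as a description in which genes are not independent replicates.

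The genes most strongly placed at the pericentral end in both libraries outside the rule, ranked by the smaller of their 2 zonal ratios, included Wnt9b, at log2 6.42 over the periportal end in cirrhosis and 6.19 in control, from 12 and 6 UMIs at that end. Lhx6, a LIM homeobox transcription factor, had 5.39 and 6.49, from 24 and 5 UMIs at the periportal end, with 141.1 CPM in cirrhosis members and 84.9 CPM in control members, although with the 0.6% minimum its log2 ratio between these was -0.09. Ackr3, a scavenging receptor for the chemokine Cxcl12, had zonal ratios of 5.24 in cirrhosis and 5.19 in control and stood at 142.8 CPM in cirrhosis members and 41.4 CPM in control members (log2 1.79, 1.59 to 1.99). Ramp3, a co-receptor of the adrenomedullin receptor, had zonal ratios of 4.01 and 3.37. All 4 were thus strongly pericentral in both libraries, and all 4 stood higher in cirrhosis members with the 0.3% minimum.

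Ltc4s, the leukotriene C4 synthase, stood at 172.1 CPM in cirrhosis members and 96.2 CPM in control members, with zonal ratios of 2.90 and 3.01. Jup, the junction protein plakoglobin, stood at 159.5 and 101.2 CPM, with zonal ratios of 2.44 and 3.00. Lgals1, galectin-1, stood at 813.0 CPM in cirrhosis members and 228.1 CPM in control members, and Rab3b, a GTPase of regulated secretion, at 214.8 and 77.5 CPM. Ptgs1, cyclooxygenase-1, stood at 485.1 and 573.0 CPM, with zonal ratios of 1.82 and 1.71. Slco3a1, an organic anion transporter, and Akap13, an anchoring protein for protein kinase A, were also among the 10 highest, with zonal ratios of 1.91 and 2.10 in cirrhosis and 1.84 and 1.72 in control.

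The gap junction gene Gja4 stood at 596.4 CPM in cirrhosis members and 473.6 CPM in control members, and was lower at the periportal end at 231.0 and 157.7 CPM. Plpp1, a lipid phosphate phosphatase, stood at 1712 and 1895 CPM in the members and 688.4 and 746.0 CPM at the periportal end. Fabp4, a fatty acid binding protein, had a flatter slope in cirrhosis. It stood at 1836 CPM in cirrhosis members and 1850 CPM in control members (log2 -0.01, -0.05 to 0.02), but at 1515 and 621.4 CPM at the periportal end, so that its zonal ratio was 0.28 in cirrhosis and 1.57 in control. Dkk3, a secreted protein of the Dickkopf family, stood at 15.2 CPM in cirrhosis members and 47.7 CPM in control members. Adam23, although on the pericentral list, was lower in the members than at the periportal end in both libraries, at -0.41 in cirrhosis and -1.16 in control.

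The genes most depleted in the members in both libraries outside the rule were Adgrg6, an adhesion G protein-coupled receptor, at 1.57 CPM in cirrhosis members and 2.86 CPM in control members against 132.4 and 100.7 CPM at the periportal end, and Esm1, endocan, a marker of sprouting endothelium, at 3.74 and 2.39 CPM against 279.1 and 84.8 CPM. Mecom, Sept4, AC167229.1, Cxcl9, Ldb2, Lama4, Igfbp5 and Abcg2 completed the 10, with zonal ratios from -1.59 to -2.62 in cirrhosis and -1.45 to -3.19 in control. Efnb1, an ephrin ligand, had a zonal ratio of -0.84 in cirrhosis and -1.91 in control, and Jag1, a Notch ligand, of -0.46 and -2.22. Of the 12 listed periportal genes outside the rule, 6 reached a mean of 20 CPM in the members, with a median zonal ratio of -0.68 in cirrhosis and -1.37 in control. At least 2-fold higher in the members than at the periportal end were 1 in cirrhosis and 0 in control. At least 2-fold lower were 1 and 3. Over all genes the shares were 1.57% and 1.5% higher and 1.27% and 0.999% lower. The most depleted, such as Adgrg6 and Esm1, are not among those 6.

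**Figure D3:**
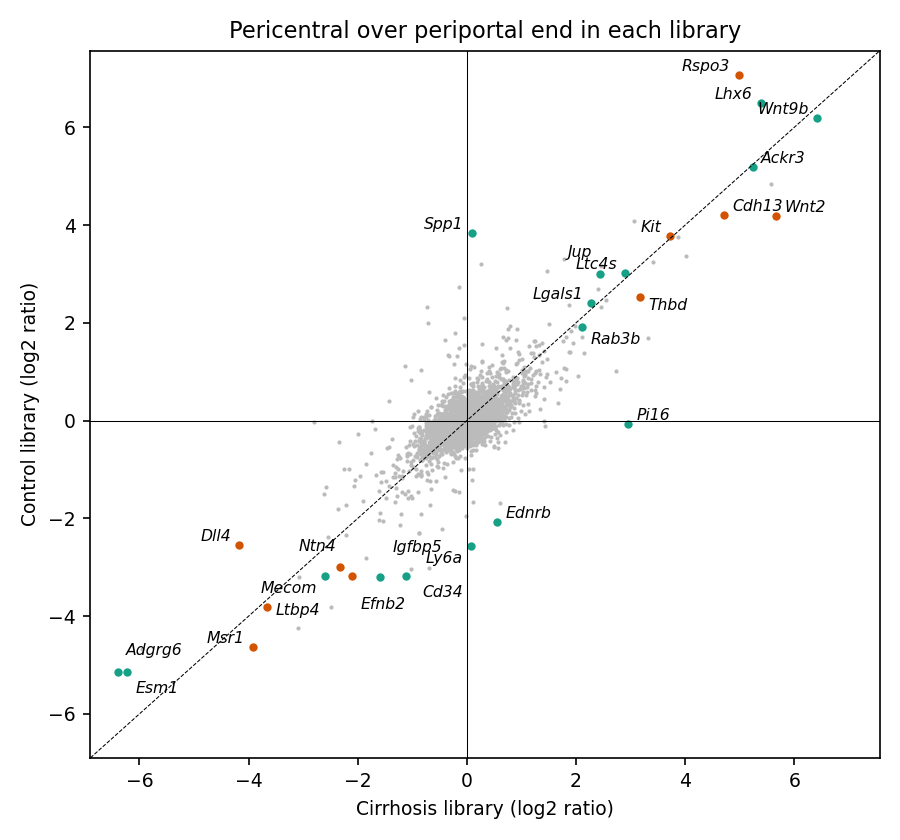
Log2 ratio of the members over the periportal end in the cirrhosis library (x axis) and the control library (y axis), 1 point per gene at a mean of at least 20 CPM, with score genes in orange, other named genes in green and the dashed line at equal ratios. Wnt9b, Ackr3 and Kit lie near the line, while Ednrb, Pi16, Ly6a and Spp1 lie away from it.

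Cirrhosis members were next set against control members over all genes. Of 6970 genes tested, 124 were at least 2-fold higher and 180 at least 2-fold lower in cirrhosis, which is 1.78% and 2.58%, and the median was -0.04. Scaling by the median of ratios gave 153 higher and 155 lower. Ly6c1, a surface antigen of the Ly6 family, had the highest ratio among abundant genes, at 190.5 CPM in cirrhosis members and 0.954 CPM in control members, a 199.6-fold difference (log2 7.64, 6.52 to 9.09) that rests on 6 UMIs in control. Pi16, a peptidase inhibitor, stood at 355.0 and 4.13 CPM (log2 6.42), and was concentrated at the pericentral end in cirrhosis, with 45.6 CPM at the periportal end. Cd34, which encodes a sialomucin that sinusoids usually lack, had 112.9 CPM in cirrhosis members and 4.93 CPM in control members (log2 4.52). Its level at the periportal end was higher than in the members in both libraries, at 244.8 and 44.5 CPM.

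Ednrb, the endothelin receptor type B, stood at 2250 CPM in cirrhosis members and 57.6 CPM in control members, a 39.1-fold difference (log2 5.29, 5.14 to 5.44). Along the score its order was not the same in the libraries. It was higher in the members than at the periportal end in cirrhosis, at 2250 against 1533 CPM, and lower in control, at 57.6 against 244.3 CPM, and within the cirrhosis members it stood at 3016 CPM in the highest-scoring 186 and 2003 CPM in the others. After thinning it was detected in 90.6% of cirrhosis members and 7.55% of control members (96.6% and 14.5% without), with 21.1% and 1.24% in the T or NK barcodes. The log2 ratio lay between 5.15 and 5.67 in every alternative. Ednra, the type A receptor, was detected in 0 of 725 cirrhosis and 0 of 702 control members after thinning (exact intervals up to 0.508% and 0.524%), and in 0.134% and 0.266% without. On GRCm38, Ednrb lies at chr14:103814625-103844402 on the minus strand and Pi16 at chr17:29317680-29330593 on the plus strand.

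Igfbp5, whose product binds insulin-like growth factors, had 115.4 CPM in cirrhosis members and 6.68 CPM in control members (log2 4.11), and its ratio ran from 2.18 at the 0.6% minimum to 8.63 with the top and bottom 10%. Flrt2, an adhesion and guidance protein, stood at 352.5 and 50.1 CPM. Slc12a2, a sodium, potassium and chloride cotransporter, stood at 87.2 and 14.5 CPM, with zonal ratios of 2.73 in cirrhosis and 1.01 in control. Armcx4 at 218.0 against 24.5 CPM, Mbd4, a DNA glycosylase, at 110.4 against 15.4 CPM and Ly6a completed the 10 highest. At the low end stood Rnd3, an atypical small GTPase of the cytoskeleton, at 8.20 CPM in cirrhosis members and 99.6 CPM in control members, and Cntfr, a receptor subunit for ciliary neurotrophic factor, at 10.6 and 119.6 CPM. Prelp, a leucine-rich matrix protein, stood at 25.4 and 160.2 CPM. The other genes among the 10 lowest were Rspo3 and genes of the immediate-early response or beside one, described below.

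Genes of sinusoidal identity were lower in cirrhosis members. Their median log2 ratio of cirrhosis over control was -0.60 in the members and -0.41 at the periportal end. Of 15 measured, 0 were at least 2-fold higher in the members, 4 were at least 2-fold lower and 14 had an interval below 0. This count and those of the lists that follow stand against 1.78% of all genes tested at least 2-fold higher, 2.58% at least 2-fold lower and a median of -0.04. The 4 calls lay near 2-fold, and at the 0.6% sinusoidal minimum Stab1 had a log2 ratio of -0.81, Dnase1l3 of -0.78 and Clec1b of -0.65, while Lyve1 had -0.33 with the top and bottom 10%. The 4 filter genes of the rule are on this list, so its direction is not independent of the choice of cells. Stab1, a scavenger receptor of modified proteins, had a log2 ratio of -1.14 and Dnase1l3, a secreted DNase, of -1.07. Clec1b, a C-type lectin, stood at 227.6 CPM in cirrhosis members and 473.5 CPM in control members, and Lyve1, a hyaluronan receptor, at 170.3 and 346.7 CPM. Gata4, a transcription factor of sinusoidal differentiation, stood at 281.4 and 277.4 CPM (log2 0.02, -0.07 to 0.11). Of the 10 measured endocytic receptors, 2 were at least 2-fold higher and 2 at least 2-fold lower. Their median was -0.63 in the members and -0.415 at the periportal end. The 2 higher ones were Cd36, a fatty acid receptor, at 880.9 CPM in cirrhosis members and 181.8 CPM in control members, and the score gene Msr1. Cd36 was a gene of the periportal end in both libraries, at 1623 and 893.7 CPM there.

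Capillarization genes were higher, with a median of 0.74 in the members and 0.996 at the periportal end. In the members 3 of 11 were at least 2-fold higher (1.78% over all genes) and 0 were at least 2-fold lower (2.58%). The 3 were Ly6c1, Cd34 and Ly6a, which encodes the antigen Sca-1 and stood at 1944 CPM in cirrhosis members and 112.9 CPM in control members. Ly6a and Ly6c1 have near-identical neighbours, so the division of reads among them is uncertain. Cd9, a tetraspanin, stood at 748.8 and 420.7 CPM, and Plvap, the diaphragm protein of endothelium, at 499.7 and 298.7 CPM. Emcn, endomucin, was the member with an interval below 0, at 344.0 against 410.7 CPM. Basement membrane and matrix genes had a median of 0.33 in the members and 0.31 at the periportal end. Of 9 measured, 1 was at least 2-fold higher in the members and 0 lower. That 1 was Col4a2, a type IV collagen chain, at 517.7 CPM in cirrhosis members and 208.5 CPM in control members. Sparc, a collagen-binding protein, stood at 2197 and 1108 CPM, and Bgn, biglycan, at 329.3 and 658.0 CPM, and Timp3, a protease inhibitor, at 867.8 and 1656 CPM.

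**Figure D4:**
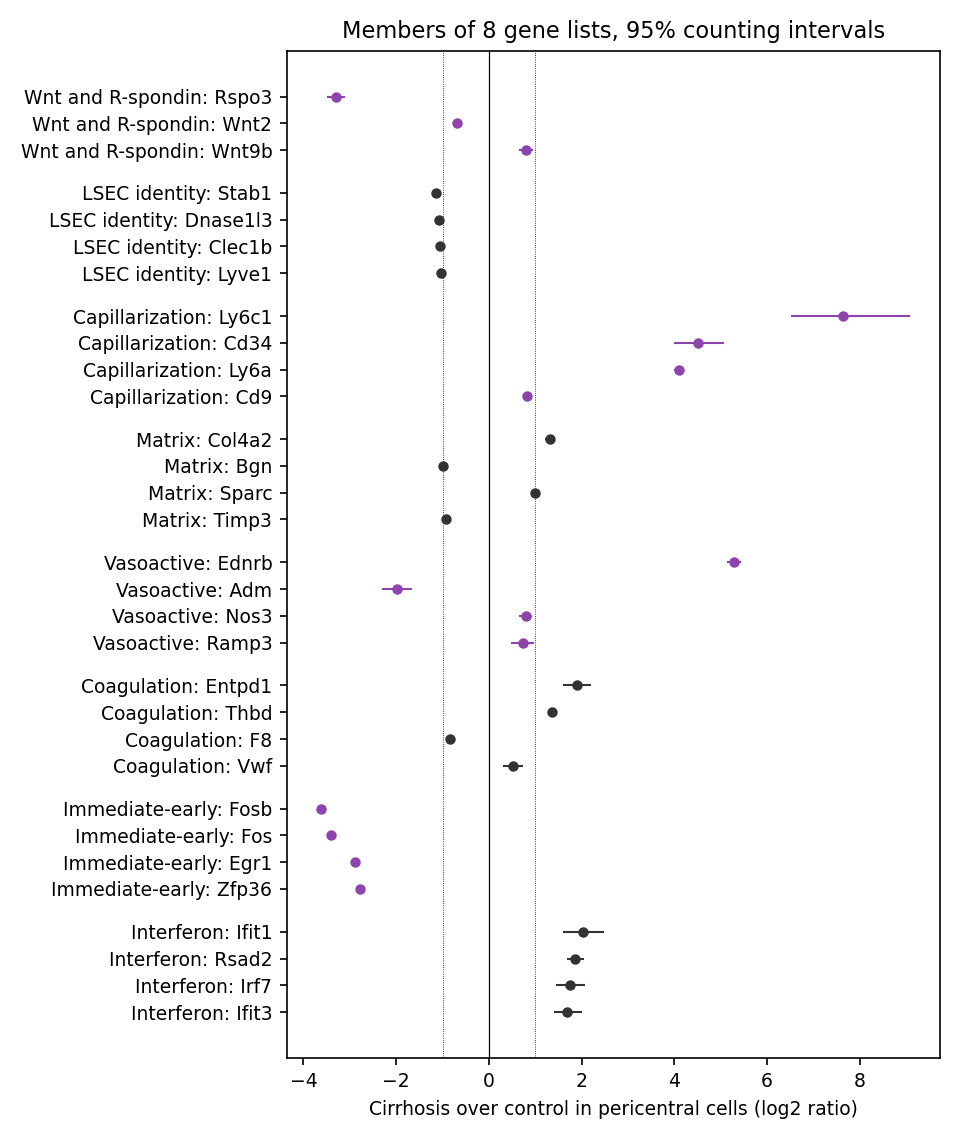
Log2 ratio of cirrhosis over control in the members (x axis) for the 3 or 4 most different genes of each of 8 lists, with exact 95% counting intervals as bars and dotted lines at 2-fold in either direction. Ly6c1, Ednrb, Cd34 and Ly6a lie farthest to the right, and Fosb, Fos and Rspo3 farthest to the left.

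Vasoactive regulators had 1 of 9 at least 2-fold higher (1.78% over all genes), which was Ednrb, and 1 lower (2.58%), which was Adm, the vasodilator adrenomedullin, at 12.4 CPM in cirrhosis members and 48.8 CPM in control members. Their median was -0.05. Nos3, endothelial nitric oxide synthase, stood at 182.1 and 105.1 CPM (log2 0.79). Edn1, the endothelin-1 gene, was below the minimum of 20 CPM on average, at 8.32 and 23.1 CPM. Coagulation genes had 2 of 7 at least 2-fold higher, with a median of 0.08. The 2 were Thbd, a score gene that took part in the choice of cells, and Entpd1. With Thbd left out of the score, its log2 ratio was 1.35. Entpd1, an ectonucleotidase that removes ATP, stood at 65.5 CPM in cirrhosis members and 17.5 CPM in control members. F8, coagulation factor VIII, stood at 541.5 and 973.8 CPM. Vwf, von Willebrand factor, stood at 61 and 42.5 CPM in the members but at 165.0 and 32.2 CPM at the periportal end.

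Growth factor and Wnt receptor genes held few differences of 2-fold. Of 7 measured genes of the Kit and angiocrine list, 1 was at least 2-fold higher (1.78% over all genes) and 2 at least 2-fold lower (2.58%). Hgf, hepatocyte growth factor, which is also on the stellate cell list, stood at 157.8 CPM in cirrhosis members and 45.3 CPM in control members. Bmp2, which induces hepcidin in hepatocytes, stood at 1133 and 2293 CPM, and Pdgfb, a ligand for pericytes and stellate cells, at 16.2 and 33.4 CPM. Neither call held throughout, with log2 -0.75 for Bmp2 at the 0.6% minimum and -0.22 for Pdgfb at the 0.1% minimum. Of 8 measured Wnt receptors and modulators 0 were at least 2-fold higher and 1, Dkk3, was at least 2-fold lower, and Lrp5, a Wnt co-receptor, stood at 95.2 and 179.2 CPM. Only 3 of 12 Wnt target genes reached the minimum, 0 of them 2-fold in either direction, and Axin2 was listed below it at 4.70 and 3.82 CPM. Sox17 stood at 184.8 CPM in cirrhosis members and 102.3 CPM in control members.

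Among the smaller lists, which stand against the same 1.78% higher and 2.58% lower over all genes, 1 of 14 TGF-beta and BMP genes was at least 2-fold higher, Id1, a BMP target, at 418.1 CPM in cirrhosis members and 204.9 CPM in control members, and 1 lower, Bmp2. With the 0.6% minimum the log2 ratio of Id1 was 0.76. Of 7 VEGF and angiopoietin genes 0 were 2-fold in either direction, with a median of -0.41, and Kdr, the main VEGF receptor, stood at 1645 and 2683 CPM. Notch genes had 0 of 8 at least 2-fold higher and 2 lower. The lower ones were Lfng, a glycosyltransferase of Notch receptors, at 61.2 and 225.4 CPM, and Dll4. Dll4 is a score gene that the rule pressed down in the members, and at the periportal end its log2 ratio was -0.31. Jag1 was under the minimum at 27.5 and 11.5 CPM. Adhesion and chemokine genes had 2 of 9 at least 2-fold higher and 2 at least 2-fold lower, the higher being Ackr3 and Ackr1, an atypical chemokine receptor of venules, at 36.3 against 17.6 CPM. The lower were Icam1, which leukocytes bind through integrins, at 47.0 CPM in cirrhosis members and 136.9 CPM in control members and Cxcl10, a chemokine for T cells, at 33.3 against 78.2 CPM. With few immediate-early transcripts Icam1 had a log2 ratio of -0.67. Selp, P-selectin, was pericentral in both libraries, at 68.0 CPM in cirrhosis members and 37.5 CPM in control members against 19.9 and 3.79 CPM at the periportal end.

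Against the same shares, xenobiotic and aryl hydrocarbon receptor genes had 2 of 9 at least 2-fold higher, Hmox1 (haem oxygenase) at 66.7 CPM in cirrhosis members and 28.9 CPM in control members and Srxn1 (sulfiredoxin) at 32.2 and 14.8 CPM (log2 0.91 at the 0.6% minimum), and 1 lower, Cyp4b1, a cytochrome P450, at 151.6 and 879.4 CPM. The level of Cyp4b1 at the periportal end was 487.6 CPM in cirrhosis and 986.5 CPM in control. Hypoxia and glycolysis genes had 0 of 13 at least 2-fold in either direction and a median of 0.14. Cell cycle genes had 1 of 5 higher, Stmn1 at 53.6 and 22.4 CPM, and 1 lower, Pcna at 29.1 and 74.4 CPM. These 2 calls were lost without Wnt2 in the score (Stmn1, log2 0.81) and with few immediate-early transcripts (Pcna, -0.88). Of 6 lipid handling genes 1 was higher, Cd36, and 0 lower. Ribosomal protein genes had 0 of 77 at least 2-fold in either direction but 68 with an interval above 0 and a median of 0.47, and processed copies leave each one uncertain. The 13 protein genes of the mitochondrial genome had 0 at 2-fold and a median of 0.17.

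AP-1, KLF and immediate-early genes are switched on within minutes by stimulation and also by tissue dissociation. In cirrhosis members 17 of 17 measured genes were lower, with 12 at least 2-fold lower, against 2.58% of all genes. The median was -1.98 in the members and -1.99 at the periportal end, so the shift was not particular to the members. Fos stood at 222.4 CPM in cirrhosis members and 2369 CPM in control members, Fosb at 106.8 and 1310 CPM and Egr1 at 161.6 and 1192 CPM. Zfp36, an mRNA-destabilising protein, stood at 126.4 and 863.6 CPM, and Nfkbiz, a regulator of NF-kappa-B signalling, at 37.6 and 238.9 CPM. Gm26802, a transcript beside Fosb, stood at 8.44 and 165.7 CPM. Klf2, a flow-responsive factor, stood at 1768 and 2310 CPM, nearer to equal. The control members were a mixture on this measure. Fos, Fosb, Jun, Junb, Egr1, Ier2 and Zfp36 together took a median of 0.109% of UMIs per member in cirrhosis and 0.892% in control, and 659 cirrhosis members (88.3%) and 203 control members (27.0%) were under 0.3%. With only those members the list median was 0.33, and Fos stood at 142.7 and 153.7 CPM. Limiting the members in this way bounds those genes by construction, and the part of tissue handling in the difference was not tested.

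Interferon-stimulated genes had a ratio above 0 in 13 of 13 measured genes, 11 of them with an interval above 0. At least 2-fold higher in cirrhosis members were 8, against 1.78% of all genes. The median was 1.05 in the members and 1.07 at the periportal end, so this shift too was not particular to the members. Ifit1 stood at 34.4 CPM in cirrhosis members and 8.43 CPM in control members, Rsad2, the antiviral protein viperin, at 158.5 and 43.4 CPM, and Irf7, a regulator of type I interferon genes, at 56.9 and 16.9 CPM. Ifit3 stood at 58.1 and 18.0 CPM. Bst2, tetherin, stood at 669.9 and 657.7 CPM. The members held less of this list than the periportal end in both libraries, with a median zonal ratio of -0.67 in cirrhosis and -0.49 in control. MHC class I genes went the other way, with 0 of 9 at least 2-fold higher and 2 lower, against 2.58% of all genes. Their median was -0.72 in the members and -0.46 at the periportal end. H2-K1 stood at 842.2 CPM in cirrhosis members and 1993 CPM in control members and H2-Q4 at 116.8 and 256.1 CPM, both members of a family in which reads can be shared. With few immediate-early transcripts H2-Q4 had a log2 ratio of -0.95.

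The difference between libraries was compared between the 2 ends of the score. The log2 ratio (cirrhosis over control) of the members exceeded that of the periportal end by at least 1 for 38 of 6931 genes (0.548%) and fell short of it by at least 1 for 48 (0.693%). Pi16 had the highest difference, 3.04, from a ratio of 6.42 in the members and 3.39 at the periportal end, but with few immediate-early transcripts it was 1.10, below that of Cd34 at 3.14. Ednrb and Ly6a followed at 2.64 each, then Ly6c1 at 2.32 and Cd34 at 2.06. Of these 5 genes 4 were depleted in control members relative to the control periportal end, Ly6c1 at -3.02, Cd34 at -3.17, Ly6a at -2.57 and Ednrb at -2.08, so a low control value was on the bottom of each ratio. In cirrhosis the same 4 had zonal ratios of -0.70, -1.12, 0.07 and 0.55. The place of these genes along the score was thus flatter in the cirrhosis library.

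At the other end, Rspo3 had a difference of -2.08 and Rnd3 of -1.90. That of Rspo3, a score gene, rests on 7 UMIs at the cirrhosis periportal end and 12 at the control one. It was -0.20 with the 0.1% sinusoidal minimum. Spp1, osteopontin, had a difference of -3.73, Lyz2, a lysozyme of myeloid cells, of -2.71 and Cd74, the MHC class II invariant chain, of -2.02. These 3 are best known from other cell types, and few barcodes held a large share of their UMIs, other than for Lyz2 in cirrhosis. In control, 5 of 753 members held 91.9% of the Spp1 UMIs, 77.0% of the Lyz2 UMIs and 49.2% of the Cd74 UMIs of the members. In cirrhosis the 5 richest members held 83.1%, 14.9% and 49.3%, and Lyz2 was detected in 240 of the 746 members. Under stricter barcode filters, with 393 cirrhosis and 521 control members, Spp1 stood at 106.9 CPM in cirrhosis members and 14.1 CPM in control members, against 153.4 and 220.6 CPM as reported.

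**Figure D5:**
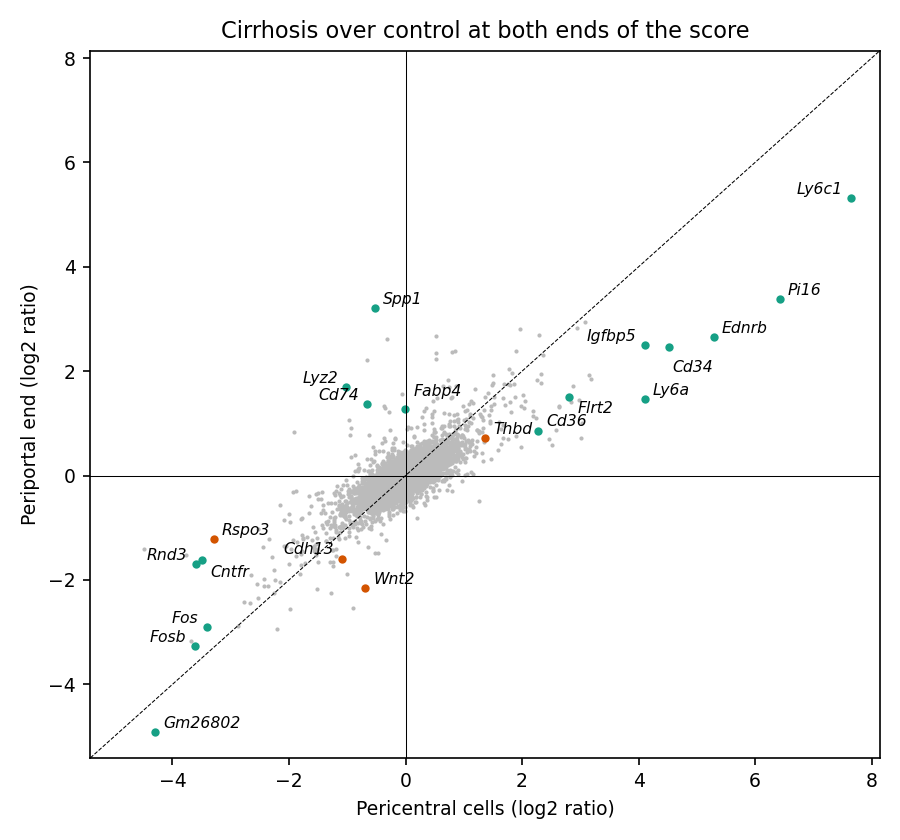
Log2 ratio of cirrhosis over control in the pericentral members (x axis) and at the periportal end (y axis), 1 point per gene at a mean of at least 20 CPM, with score genes in orange, other named genes in green and the dashed line at equal ratios. Pi16, Ednrb, Ly6a, Ly6c1 and Cd34 lie below the line, and Spp1, Lyz2 and Cd74 above it.

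Transcripts of other cell types were low in the members but differed between libraries. The 10 hepatocyte markers summed to 0.109% of member UMIs in cirrhosis and 0.0687% in control, with per-cell medians of 0.0382% and 0.0168%, and 0 of the 10 were at 0. The 10 Kupffer cell and macrophage markers summed to 0.051% and 0.0345%, with medians of 0.0354% and 0.0106%, and 1 was at 0 in cirrhosis. At the periportal end these 10 summed to 0.031% and 0.0146%, with medians of 0.0118% and 0%. The members thus held more of them in both libraries. The 14 central vein and large vessel markers, which include Rspo3 and Wnt9b, summed to 0.18% and 0.179% in the members and to 0.177% and 0.144% at the periportal end, with per-cell medians of 0.15% and 0.135% in the members. The 8 pericentral hepatocyte markers summed to 0.0406% and 0.0308%, with 2 at 0 in cirrhosis and 1 at 0 in control. Stellate cell markers summed to 0.0232% and 0.0205%, periportal hepatocyte markers to 0.00922% and 0.00678%, T and NK markers to 0.00252% and 0.0186%, cholangiocyte markers to 0.0171% and 0.0247%, B cell markers to 0.00788% and 0.0135% and lymphatic markers to 0.00696% and 0.0024%. Glul, glutamine synthetase, the classic pericentral hepatocyte enzyme, was lower in the members than at the periportal end in both libraries, at 331.7 against 532.7 CPM in cirrhosis and 230.6 against 539.6 CPM in control. Most of the sum of the 8 pericentral hepatocyte markers came from Glul. After thinning to 3000 UMIs it was detected in 63.9% of cirrhosis and 48.4% of control members. In the T or NK barcodes the shares were 15.9% and 13.2%. The part of these transcripts in the results above was not tested.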

How the data were processed

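RNA was measured by droplet sequencing (Single Cell 3' v3 chemistry, per the labels) in 1 cirrhosis and 1 control library, each from pooled cells of 3 mice. The deposited files hold raw UMI counts per gene symbol and barcode. The submitters' processing notes name Cell Ranger and mm10, with the annotation and version not given in the sources used here. Positions come from GENCODE M21 on GRCm38, where 30464 of 31057 symbols were found, and promoters from RefSeq.

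A barcode entered with 500 or more UMIs, 300 or more genes and less than 20% mitochondrial counts, besides the limits given with the results. Score genes were taken as the natural log of 1 plus counts per 10000. Counts were summed over the members of each library and scaled to CPM, and ratios carry exact conditional (Clopper-Pearson) 95% intervals. Called means 2-fold or more at a mean of at least 20 CPM. Doublets were kept, and an alternative removed 555 cirrhosis and 255 control barcodes (43 and 21 members) that scored highest against simulated doublets. Ratios and intervals were also run on summed counts simulated with counting error only. That run cannot show how the intervals hold when cells or animals differ. Python 3.11.15, numpy 2.4.6, scipy 1.17.1 and pandas 2.3.3 were used. Scaling by the median of ratios moved no comparison's centre by more than 0.1 on the log2 scale.

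The members, the lists and the rule for named genes were chosen with earlier results of these data known. The rule names the 4 (main lists) or 2 (other lists) members with the largest ratio at a mean of 20 CPM, the 10 highest and 10 lowest ratios at a mean of 50 CPM, the 10 most pericentral and 10 most periportal genes of both libraries, the 5 highest and 5 lowest differences between the ends of the score, and the genes that define the members. Of the genes so named, 1 is not reported here. Further genes in the text were picked with their values in view.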

Additional observations from a re-analysis of the deposited data

Results flagged for a closer look

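In these 10 genes the cirrhosis over control ratio had opposite signs in the pericentral members and at the periportal end, and the log2 values given are the members' ratio minus the periportal end's. The difference itself was not tested, since there was 1 library per group. For 8 genes the ratio was below 0 in the members and above 0 at the periportal end. These were Spp1 at -3.73, Lyz2 at -2.71, Cd74 at -2.02, Igkc, an immunoglobulin light chain, at -1.73, the MHC class II genes H2-Aa at -1.70 and H2-Ab1 at -1.64, Irf8, a factor of myeloid and B cells, at -1.40, and Ccnd1, cyclin D1, at -1.10. For Rasd1, a Ras-related GTPase, and Fabp5, a fatty acid binding protein, the signs were the other way round, with differences of 1.01 and 1.09.

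Ccnd1 stood at 170.7 CPM in cirrhosis members and 251.9 CPM in control members, and at 335.4 and 231.0 CPM at the periportal end. Fabp5 stood at 597.4 and 345.6 CPM in the members and 556.0 and 684.7 CPM at the periportal end, so its order along the score differed between the libraries. Rasd1 stood at 136.7 and 119.1 CPM in the members and 91.9 and 161.3 CPM at the periportal end.

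The other 7 genes are best known from immune cells or, for Spp1, from bile duct epithelium and macrophages. For Igkc, 5 of the 746 barcodes at the cirrhosis periportal end held 75.9% of its UMIs there, against 4.21% at the control periportal end. For H2-Aa and H2-Ab1 the 5 richest cirrhosis members held 44.0% and 41.0% of the members' UMIs, and the 5 richest control members held 48.0% and 50.2%. Irf8 was spread more widely, detected in 360 of 746 cirrhosis members and 364 of 753 control members. Its 5 richest members held 15.6% and 22.3%. Igkc was detected in 395 of the 753 control members, and the 5 richest held 8.8%.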

How the results depend on the processing

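The named genes were recomputed under 17 alternatives. Of 115 genes, 58 were 2-fold or more between cirrhosis and control members, 56 of which kept their sign and 35 their 2-fold difference under every alternative, and 19 of 25 list medians kept their sign. The 0.1% and 0.6% sinusoidal minimums were added after seeing the data. Among ratios of 2-fold or more, the signs that turned were, for cirrhosis over control in the members, Lyz2 at 1.71 with few immediate-early transcripts, 0.20 with each cell weighted equally and 0.69 at the 0.6% minimum, and Nfkbiz at 0.61 with few immediate-early transcripts. For members over periportal end in control they were Spp1 at -0.10 under stricter filters, and Lyz2 at -0.27 and Cd74 at -0.11 with few immediate-early transcripts. For the difference between the ends they were Esm1 at 0.061 without Kit in the score and 0.45 with few immediate-early transcripts, and Igfbp5 at -0.37 at the 0.6% minimum. Ratios under 2-fold turned more often. Examples in the members were Wnt9b (-0.25) and Lhx6 (-0.09) at the 0.6% minimum, Adgrg6 (0.22) with the top and bottom 10%, and Spp1 and Cd74, at 2.92 and 0.52 under stricter filters and at 1.10 and 1.91 with few immediate-early transcripts. Zonal examples were Pi16 in control (1.87 with few immediate-early transcripts), and in cirrhosis Cd74 (1.48 with 10%) and Ly6a (-0.22 without Thbd in the score). The list medians that turned were AP-1 (0.33), adhesion (0.14) and coagulation (-0.14) with few immediate-early transcripts, Notch (0.02) with the top and bottom 10%, the pericentral list (-0.12) at 0.6% and the vasoactive list (0.03) with median of ratios.

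The counts of genes at 2-fold depended most on the minimum level. At 5 CPM, 269 were higher and 409 lower in cirrhosis members, 216 and 161 in members over the periportal end in cirrhosis, 256 and 130 in control, and 98 and 220 by the difference between the ends. With no minimum these were 877 and 1797, 956 and 932, 1404 and 643, and 697 and 1300. With the top and bottom 10%, the zonal counts were 161 and 166 in cirrhosis, 113 lower in control, and 58 and 80 by the difference. With 30% they were 70 higher in cirrhosis, 67 higher in control and 21 lower by the difference. Further ratios in the members that moved by over 1.5 times were Entpd1 at 2.76, Irf7 at 2.37 and Ifit1 at 1.16 with few immediate-early transcripts, Msr1 at 2.07 under stricter filters and Cyp4b1 at -1.88 at the 0.6% minimum. With few immediate-early transcripts, 202 were higher in cirrhosis members, 120 lower in control members than at their periportal end and 82 higher by the difference. The 0.1% minimum gave 188 higher in cirrhosis members and 76 lower by the difference, and the 0.6% minimum gave 71 zonal genes higher in cirrhosis and 23 and 28 by the difference. Thinning to 5000 UMIs raised the shares to 29.4% for Rspo3 in control, 84.4% and 95.2% for Wnt2, 33.9% and 24.9% for Wnt9b and 95.7% and 10.3% for Ednrb in cirrhosis and control members. Apart from fewer cells, a lower minimum or more UMIs by construction, the cause was not tested.

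No paired analysis was possible because there was 1 library per group and 1 replicate number. Depth limits genes such as Rspo3, with 257 UMIs in cirrhosis members.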
